A study of Mus musculus with 59 samples.

Results

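The aminoacyl-tRNA synthetases are the enzymes that load each amino acid onto its transfer RNA. Their genes were taken from the deposited gene table by name, as symbols made of a 1-letter amino acid code followed by ars or ars2, together with Eprs, Farsa, Farsb, Pars2, Tarsl2 and Ears2. This gave 36 of the 19613 genes in the table. Of these, 17 encode cytosolic enzymes, 16 encode mitochondrial enzymes (names ending in 2), and Gars and Kars each supply both compartments from 1 gene. Tarsl2, a paralogue of the threonine enzyme Tars, was kept apart from both classes. Wars and Fars2 were not analysed here.

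The values come from embryoid bodies (EBs) containing spinal motor neurons, made from mouse HBG3 embryonic stem cells that carry a green fluorescent HB9 reporter. Motor neurons were induced with retinoic acid and a hedgehog agonist, and the EBs were then exposed for 24 h to mouse serum before RNA was hybridized to Affymetrix exon arrays. Serum came from male mice hemizygous for a mutant human SOD1 transgene, before symptoms (carrier serum, 29 arrays), or from their non-carrier littermates (non-carrier serum, 30 arrays). All mice were F1 progeny of C57BL/6 and SJL, and the labels give 9 weeks for 53 arrays and 10 weeks for 6. All arrays share 1 stem cell line, and the groups differ in the serum added. An array is a bulk measurement of whole EBs, so fewer cells of a type and less RNA per cell cannot be told apart. Nothing in the labels says that every array came from a separate mouse, and p-values then measure the spread between arrays, which may be technical in part.

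No batch is named in the labels. Titles that share a word, or that lie in 1 stretch of consecutive numbers, were treated as a run, and each of the 9 runs held both kinds of serum: motorneuron (7 arrays), HB9MNs (4), 10wk (6) and 6 numbered stretches called A (6), B (6), C (11), D (7), E (6) and F (6) in the order of their numbers. Median array intensities ranged from 151 to 183 for carrier arrays and from 153 to 177 for non-carrier arrays. Of 20 measured markers of motor neurons, progenitors, neurons, pluripotent cells, astrocytes and red blood cells, 1 passed the test described below, where 2.33% of all genes were called. It was the neuronal gene Stmn2 at 0.061 ± 0.017 (SE) on the log2 scale (limma, adjusted p = 0.0400). Also below an unadjusted p of 0.05 were Olig2 (-0.085), Nkx6-1 (-0.083) and Lhx3 (-0.086), lower with carrier serum. Isl1 (0.053), Pou5f1 (0.12), Nanog (0.11) and Hbb-b1 (0.16) were higher at that level, and the other markers did not reach it. Of all 19613 genes, 1703 were lower and 2354 higher at that level. The summed intensity of the motor neuron markers Mnx1, Isl1, Lhx3 and Chat ranged from 2290 to 3550 with carrier serum and from 2620 to 3450 with non-carrier serum, and that of the 4 pluripotent markers from 223 to 423 and from 230 to 394. Exon array intensities have no true 0, so these levels do not show by themselves which cells were present. By a two-sided Grubbs' test of each array's mean correlation with its run, 2 arrays stood apart, a carrier array in run E (mean r 0.979) and, in run C, a non-carrier one (mean r 0.990).

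Cells keep separate sets of synthetases for the cytosol and for the mitochondrion because each compartment translates its own messages with its own transfer RNAs. Most mitochondrial synthetases are encoded by nuclear genes distinct from those of their cytosolic counterparts, and their proteins are imported. When amino acids run short or unfolded protein collects in the endoplasmic reticulum, kinases phosphorylate the initiation factor eIF2α and the transcription factor ATF4 is made. ATF4 and its partners of the C/EBP family bind a composite element, the C/EBP-ATF element, whose core is written TGATGNAA, with TGATGCAA as its best known form. Many cytosolic synthetase genes are known targets of ATF4.

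Promoters of members were read for this element because the members called below are largely of 1 class. RefSeq promoter windows (build GRCm38.p6), each 300 bases from 250 before to 50 after a transcript start, were found for 27 of the 36 members. By symbol, 35 members matched RefSeq, and Mars matched through a synonym. Those without one included Cars, Hars, Hars2, Lars, Nars, Pars2, Rars and Vars. The stretches shown run 5′ to 3′ along the gene from 150 bases before the start to 20 after it, and capitals mark TGATGNAA or its reverse complement. They are the 5 members with a match, followed by 2 without one: Kars, which like Gars serves both compartments, and Yars2, the mitochondrial counterpart of Yars.
Yars: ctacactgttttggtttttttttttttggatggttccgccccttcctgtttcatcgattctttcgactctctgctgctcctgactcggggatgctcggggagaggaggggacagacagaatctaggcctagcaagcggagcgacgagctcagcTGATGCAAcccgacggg
Tars: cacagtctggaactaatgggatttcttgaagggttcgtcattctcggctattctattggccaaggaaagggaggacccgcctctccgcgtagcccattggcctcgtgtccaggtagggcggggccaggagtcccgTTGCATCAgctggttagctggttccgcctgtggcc
Aars: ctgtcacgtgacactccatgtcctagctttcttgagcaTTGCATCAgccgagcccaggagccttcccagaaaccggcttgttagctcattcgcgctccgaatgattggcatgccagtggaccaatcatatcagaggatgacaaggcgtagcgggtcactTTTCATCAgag
Iars: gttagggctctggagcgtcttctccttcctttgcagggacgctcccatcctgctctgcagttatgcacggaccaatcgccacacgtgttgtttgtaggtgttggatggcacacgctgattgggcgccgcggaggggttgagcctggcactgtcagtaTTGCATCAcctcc
Gars: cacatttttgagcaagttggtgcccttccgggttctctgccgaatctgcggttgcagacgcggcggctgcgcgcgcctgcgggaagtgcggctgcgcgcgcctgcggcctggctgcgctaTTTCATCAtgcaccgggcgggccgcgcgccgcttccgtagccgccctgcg
Kars: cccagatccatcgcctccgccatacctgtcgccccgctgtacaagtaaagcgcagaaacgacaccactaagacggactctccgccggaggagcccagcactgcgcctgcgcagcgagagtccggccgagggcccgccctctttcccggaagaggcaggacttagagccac
Yars2: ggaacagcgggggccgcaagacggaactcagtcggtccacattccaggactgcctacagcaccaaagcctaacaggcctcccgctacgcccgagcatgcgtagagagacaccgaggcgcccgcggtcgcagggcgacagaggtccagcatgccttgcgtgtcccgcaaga
These lie at chr4:129189753-129189922 on the plus strand (Yars), chr15:11399639-11399808 on the minus strand (Tars), chr8:111033692-111033861 on the plus strand (Aars), chr13:49681980-49682149 on the plus strand (Iars), chr6:55037851-55038020 on the plus strand (Gars), chr8:112011335-112011504 on the minus strand (Kars) and chr16:16302815-16302984 on the plus strand (Yars2). TGATGCAA, on either strand, occurred in the windows of Yars, Tars, Aars and Iars, that is in 4 of the 8 windows of members that were lower with carrier serum. It occurred in none of the 5 windows of other cytosolic or shared members and in none of the 14 windows of 13 mitochondrial members. Of all 32851 promoter windows in the RefSeq table, 0.895% held TGATGCAA. The looser TGATGNAA, which includes it, added Gars and a further match in Aars, and was present in 3.97% of all windows. Mars, Eprs and Sars, also lower with carrier serum, had windows without either form and are not shown. The match began 3 bases after the start in Yars, 7 after it in Iars, 15 before it in Tars, and 30 before it in Gars, and Aars had 1 match 9 bases after the start beside the one farther upstream. The starts used for Yars and Aars lie 169 and 6064 bases inside the annotated gene. A match of letters is a description of sequence, and binding was not measured in these samples.

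Cytosolic members were lower with carrier serum and mitochondrial members were not called in either direction. The change of each gene, as carrier minus non-carrier log2 intensity, was fitted with limma over all 59 arrays with the run as a block, and p-values were adjusted by the Benjamini-Hochberg method over all 19613 genes, with 0.05 as the threshold. Of the 17 cytosolic members, 10 fell (58.8%), against 1.65% of all genes that were called lower and 0.683% called higher. None of the 16 mitochondrial members passed, with 3 of them below an unadjusted p of 0.05 and lower (Hars2, Tars2 and Lars2), where 8.68% of all genes were lower at that level. The median log2 change was -0.14 over the cytosolic members, -0.0059 over the mitochondrial members and 0.016 over all genes. The share of called genes rises with intensity, so it was also counted over genes with a mean in the range of each class: 3.70% of 4348 genes were lower between the dimmest and brightest cytosolic member (mean log2 intensities of 8.75 and 10.96), and 2.06% of 6412 genes in the mitochondrial range (6.72 to 8.61). A count of 0 among 16 genes is near that background. Standard errors were 0.016 to 0.033 for the mitochondrial members and 0.021 to 0.051 for the cytosolic members. The classes do not overlap in mean intensity, so these errors do not show that a change of equal size would register equally in both. Class and intensity cannot be told apart here, nor in the pairs below.

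**Figure D1:**
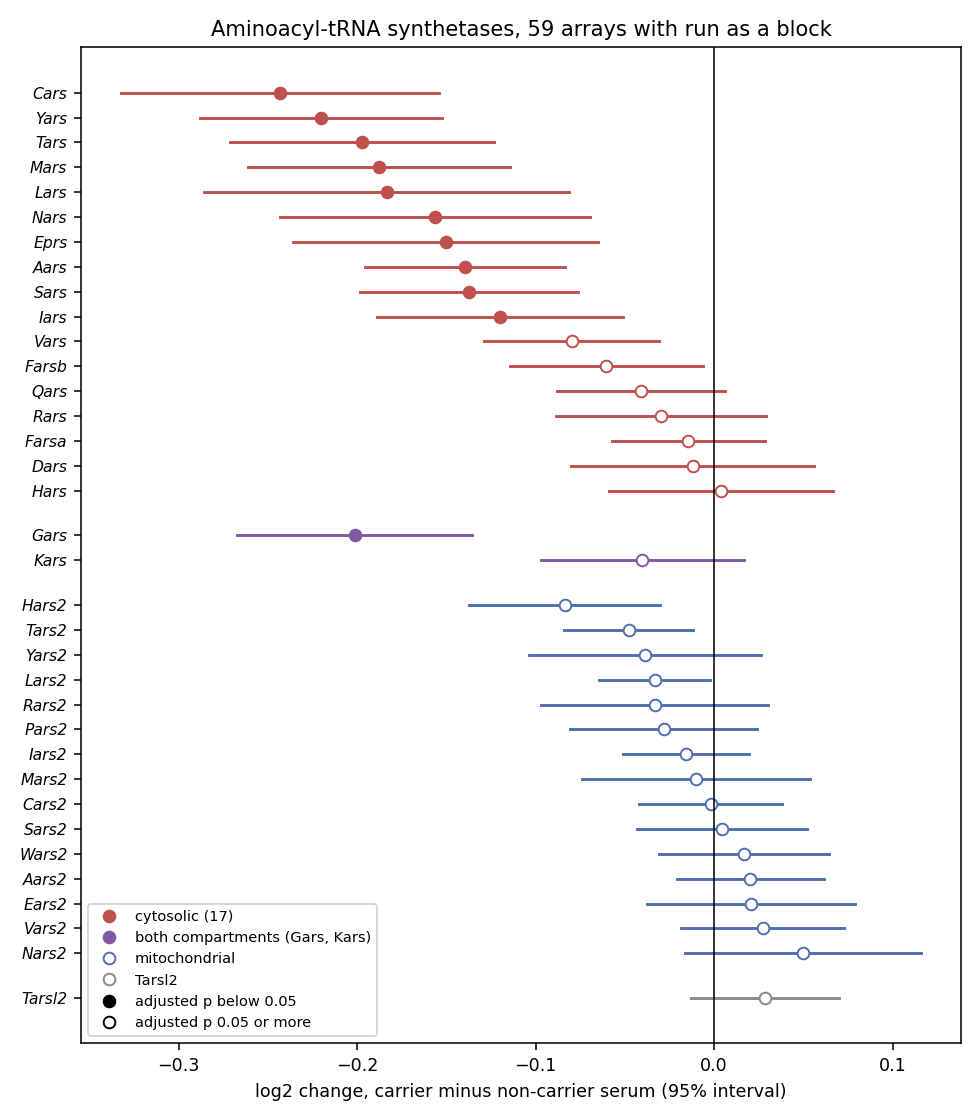
Log2 change (carrier minus non-carrier serum) of 35 members with its 95% interval, from limma on 59 arrays with run as a block; filled points have an adjusted p below 0.05. The 11 filled points are 10 cytosolic members and Gars, all below 0, while the mitochondrial members shown lie between -0.084 and 0.050.

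Among the cytosolic members, Cars, the cysteine enzyme, had the lowest change. Its log2 intensity over the carrier arrays had a lowest value of 8.73, a median of 9.08 and a highest value of 9.76, and over the non-carrier arrays 8.70, 9.46 and 10.14. The ranges overlapped over all runs, but within each of 6 runs (A, B, D, E, F and 10wk) every carrier array lay below every non-carrier array. The change was -0.24 ± 0.044 (SE) on the log2 scale, so that its intensity fell by 15.5% (limma, adjusted p = 0.00179). Yars, the tyrosine enzyme, had the smallest p of the family. Its lowest, median and highest log2 intensities were 9.60, 10.17 and 10.68 with carrier serum, and 9.79, 10.39 and 10.90 with non-carrier serum. All carrier arrays lay below all non-carrier arrays in 5 runs, and the change was -0.22 ± 0.034 (limma, adjusted p = 0.000194). It was negative in 8 of 9 runs.

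Gars, the glycine enzyme of both compartments and a gene whose human counterpart is mutated in a hereditary motor neuropathy, behaved like Cars and Yars. Its log2 intensity had a median of 10.15 with carrier serum (9.81 to 10.74) and of 10.35 with non-carrier serum (9.87 to 11.004), with a change of -0.20 ± 0.033 (limma, adjusted p = 0.000413). Carrier arrays lay below non-carrier arrays in all 9 runs on average and without overlap in 6. Kars, the lysine enzyme and the other gene that serves both compartments, had medians of 9.67 and 9.73 and a change of -0.040 ± 0.028 (limma, adjusted p = 0.403), and its arrays overlapped in every run.

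The remaining called members fell by less than Cars, Yars and Gars. Tars (threonine) changed by -0.20 and Mars (methionine) by -0.19, with adjusted p of 0.00216 and 0.00281 in limma. Their median log2 intensities with carrier and non-carrier serum were 8.75 and 9.08 for Tars and 8.99 and 9.06 for Mars. Aars (alanine) and Sars (serine) both changed by -0.14, with adjusted p of 0.00295 and 0.00870, and medians of 9.86 and 10.03 for Aars and of 10.84 and 11.01 for Sars. The other 4 passed closest to the threshold. Lars (leucine) changed by -0.18 ± 0.051, with an adjusted p of 0.0400 and medians of 8.95 and 9.23. Nars (asparagine) was at -0.16, Eprs (glutamate and proline, joined in 1 protein) at -0.15 and Iars (isoleucine) at -0.12, with adjusted p of 0.0389, 0.0435 and 0.0457. The ranges of the 2 kinds of serum overlapped over all arrays for each of these genes.

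The 7 cytosolic members that were not called ran from Vars (valine, -0.080, adjusted p = 0.0613), the nearest to the threshold, to Hars (histidine, 0.0039, adjusted p = 0.953) in limma. Farsb and Farsa, the subunits of the phenylalanine enzyme, had changes of -0.060 and -0.014, Qars (glutamine) of -0.041, Rars (arginine) of -0.030 and Dars (aspartate) of -0.012. Members of both kinds of protein assembly were called. Of the 8 synthetases that sit in the cytosolic multisynthetase complex, 4 fell (Eprs, Iars, Lars and Mars), and of the 11 measured outside it, Gars included, 7 fell. By catalytic fold, 5 of 8 class I members fell, 5 of 10 class II members, and Eprs, which holds a domain of each class. Both groupings were chosen after the values were seen.

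Setting the members for 1 amino acid against each other within each array removes what an array shares. For 15 pairs of a cytosolic and a mitochondrial member, the difference of their log2 changes (cytosolic minus mitochondrial) was computed by regressing the difference of their log2 intensities on run and serum. It was negative in 13 pairs and had a 95% interval below 0 in 12, with a median of -0.15. In all of these 12 but the valine pair, the cytosolic member was itself called lower, so the count restates those calls in part. The intervals are not adjusted for the number of pairs. Eprs was set against both Ears2 and Pars2, each with an interval below 0, so these pairs share its values. Cars against Cars2 gave -0.24 (95% interval -0.35 to -0.14), Nars against Nars2 -0.21 (-0.29 to -0.12) and Yars against Yars2 -0.18 (-0.28 to -0.087). Vars, which did not pass the test alone, gave -0.11 (-0.16 to -0.054) against Vars2, itself at 0.027. The histidine pair ran the other way: Hars minus Hars2 was 0.088 (0.028 to 0.15), as Hars2 had the lowest mitochondrial change at -0.084 ± 0.027 (limma, adjusted p = 0.0729). For arginine the interval of the difference was -0.053 to 0.060.

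**Figure D2:**
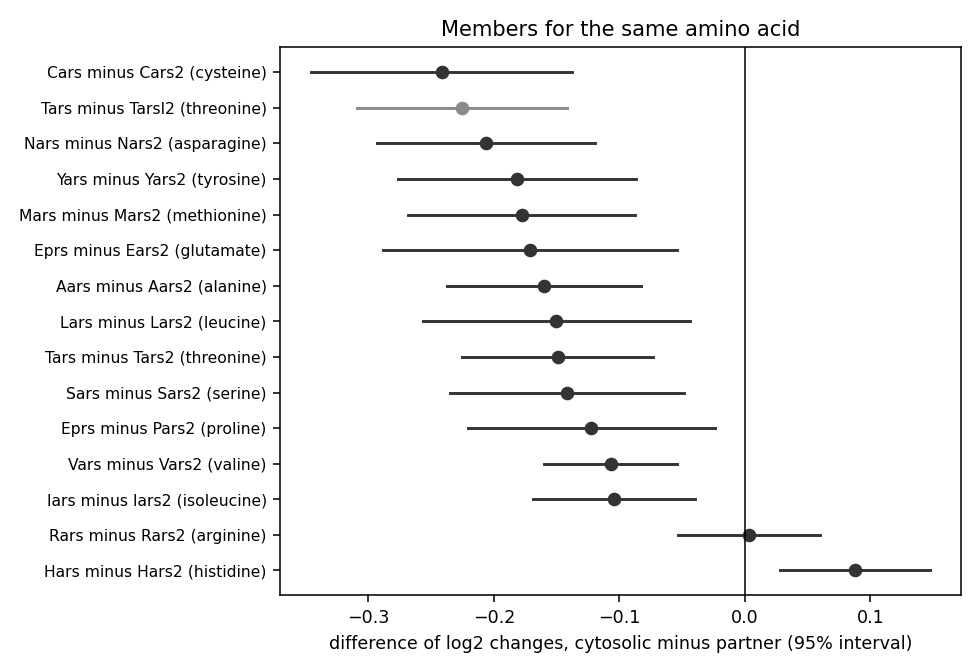
Difference of log2 changes (cytosolic minus partner, points) with 95% intervals for cytosolic and mitochondrial members of the same amino acid, and in grey for Tars minus its paralogue Tarsl2. Of the mitochondrial pairs shown, 12 have intervals below 0 and that of histidine lies above it.

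The mitochondrial counterparts of the called members showed small changes of both signs. Aars2 was at 0.020, Ears2 (glutamate) at 0.021, Sars2 at 0.0043, Cars2 at -0.0018, Mars2 at -0.0100, Iars2 at -0.016, Pars2 (proline) at -0.028, Lars2 at -0.033, Yars2 at -0.039 and Tars2 at -0.048, and Nars2 was the highest at 0.050 ± 0.033 (limma, adjusted p = 0.376). The widest of the 95% intervals reached from -0.016 to 0.12 (Nars2). The median log2 intensities of Nars2 were 8.15 with carrier and 8.09 with non-carrier serum, and its values overlapped in 8 of 9 runs. Tarsl2 was at 0.028 ± 0.021 (limma, adjusted p = 0.420), and Tars minus Tarsl2 was -0.23 (95% interval -0.31 to -0.14), negative in all 9 runs.

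The cytosolic change was uneven across runs. The mean log2 intensity of the 17 cytosolic members was computed for each array as a description. In run B the 3 carrier arrays lay between 9.497 and 9.60 and the 3 non-carrier arrays between 9.73 and 10.07. The carrier arrays also lay below all non-carrier arrays in runs A, D, F and 10wk, and the kinds of serum overlapped in motorneuron, HB9MNs, C and E. The median change over the cytosolic members was -0.39 in run B, -0.27 in F, -0.22 in D, -0.14 in E, -0.13 in 10wk, -0.082 in A, -0.040 in motorneuron, 0.011 in C and 0.033 in HB9MNs. Lower in carrier serum were 16 of 17 members in A, B, D and 10wk, 17 in F and 14 in E, but 9 in motorneuron and 6 in each of C and HB9MNs. The share of all genes that were lower was 60.0% in HB9MNs and between 40.0% and 50.1% in the other runs. The mitochondrial median stayed between -0.042 and 0.016 in all 9 runs, and the mitochondrial class means of the 2 kinds of serum were free of overlap in 1 run, 10wk.

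**Figure D3:**
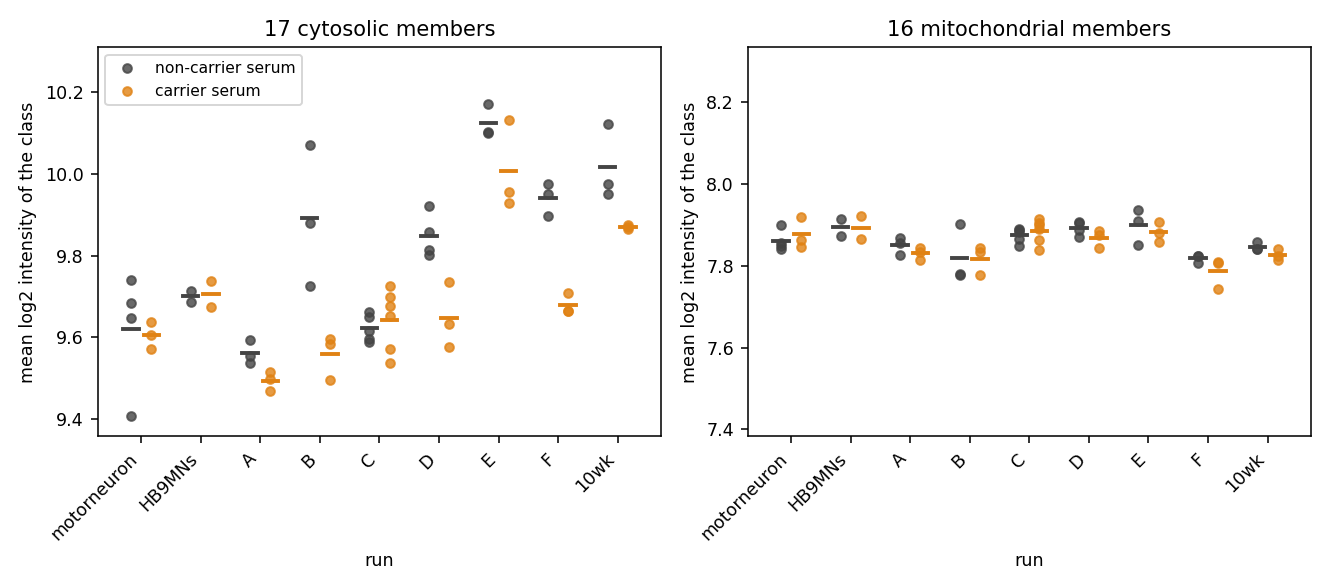
Mean log2 intensity of the 17 cytosolic members (left) and of the 16 mitochondrial members (right) in each array, by run and serum, with a bar at each group's mean; both panels span the same number of log2 units. Cytosolic means separate by serum in runs A, B, D, F and 10wk, while mitochondrial means overlap in every run but 10wk.

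The 5 runs with the lowest changes were also those in which the cytosolic mean was high with non-carrier serum: 9.89 in B, 9.85 in D, 10.12 in E, 9.94 in F and 10.02 in 10wk, against 9.56 to 9.70 in A, C, motorneuron and HB9MNs. The change includes the non-carrier mean, so the 2 quantities are not independent, and no test was made of this order. With carrier serum the class mean was between 9.49 and 9.71 in 7 runs, with 9.87 in 10wk and 10.01 in E. Of a cytosolic member's variance, 69.7% lay between runs (the class median), against 50.5% for a mitochondrial member and 62.5% for a gene of the whole table.

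Whether the serum effect differed between runs was tested for each gene with the serum by run terms of limma, an F test over the 59 arrays. It was called for 25 of all genes, 0.127%, and for 2 members, Cars (adjusted p = 0.0135) and Lars (adjusted p = 0.0358). Iars followed with an adjusted p of 0.0604. Below an unadjusted p of 0.05 were 9 of the 17 cytosolic and 1 of the 16 mitochondrial members, and 7.94% of all genes. Cars in run B had log2 intensities of 8.76 to 8.99 in the carrier arrays and of 9.41 to 9.99 in the non-carrier arrays, a change of -0.76, whereas in run C the ranges were 8.95 to 9.20 and 8.97 to 9.11, a change of 0.070. Lars changed by -0.64 in B, -0.54 in F and -0.38 in D, and by 0.11 in C and 0.075 in motorneuron. Its arrays did not overlap in B, D, F and 10wk, all lower, or in HB9MNs (2 arrays of each serum), higher with carrier serum. With arrays centred on their median, or with run C parted in 2, Lars did not pass (adjusted p = 0.0597 and 0.0569).

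**Figure D4:**
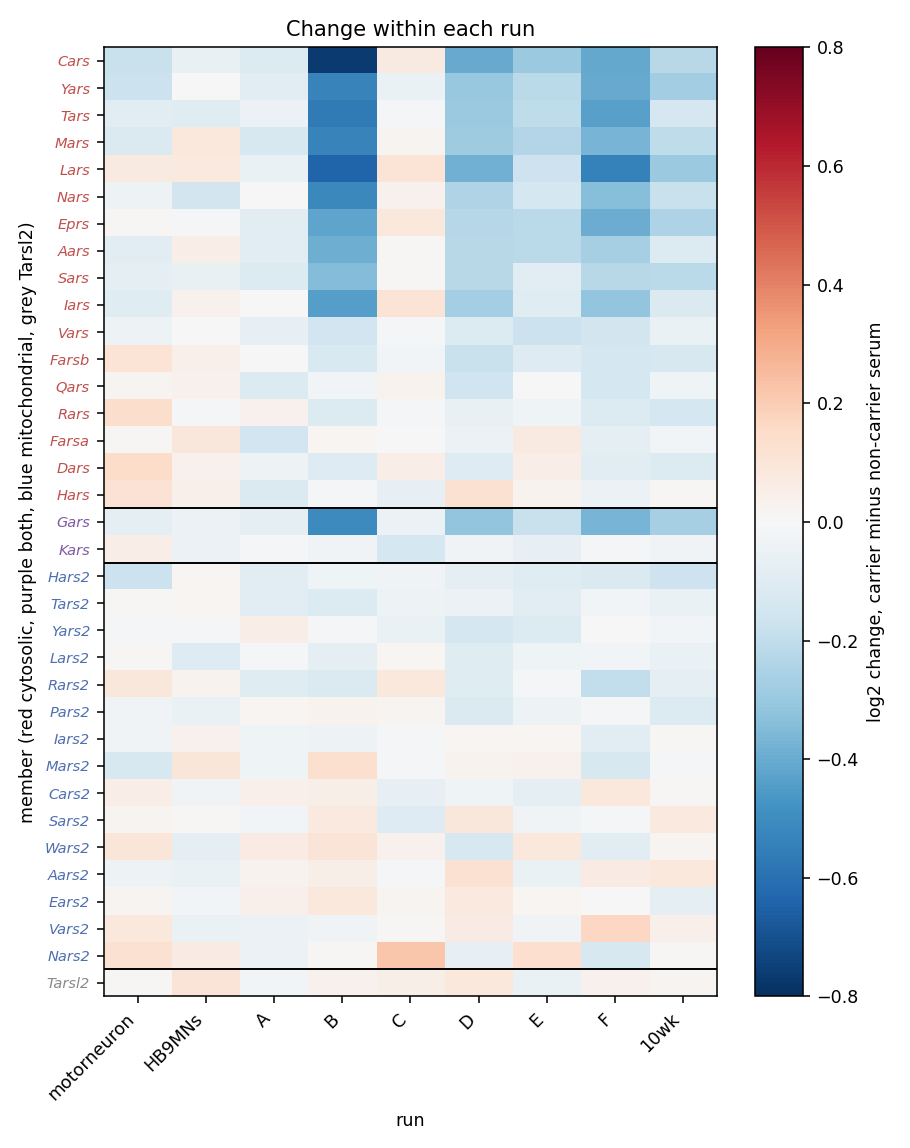
Log2 change (carrier minus non-carrier serum) of 35 members within each of the 9 runs, as the difference of group means; blue is lower with carrier serum. The lowest value is that of Cars in run B (-0.76), and runs C and HB9MNs show changes near 0 for most cytosolic members.

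Runs E and F, the last of the numbered stretches, were also fitted alone (12 arrays). All 17 cytosolic members had negative changes, 12 of them with an unadjusted p below 0.05, and 10 of 16 mitochondrial members were negative with none below it. Of all genes, 43.4% were negative and 4.78% were lower with an unadjusted p below 0.05. Only Cars passed after adjustment among members (-0.35 ± 0.053, limma, adjusted p = 0.0458), where 0.0867% of all genes were called lower. One array decided this count. Without the carrier array of run E that stood apart, 10 cytosolic members and Gars were called lower, against 0.362% of all genes, with Eprs at -0.39 ± 0.033 (limma, adjusted p = 0.00204), and no mitochondrial member was called. These 10 were not the same as over all runs: they held Farsb (limma, adjusted p = 0.04998) and lacked Aars (limma, adjusted p = 0.0558). Over all 59 arrays, leaving out both arrays that stood apart kept the 10 cytosolic calls and added Hars2. That fit called 3.65% of all genes, against 2.33% with all arrays.

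Members were compared further by how they varied among the 30 non-carrier arrays, which holds no difference in serum kind. Each run was centred on its mean, and Pearson's r is given as a description, since the arrays share runs and handling. The median r was 0.56 between cytosolic members, 0.095 between mitochondrial members, 0.21 between the classes and 0.031 between all genes. The 11 called members had r from 0.66 to 0.96 with each other and a median of 0.86, whereas in the 29 carrier arrays the range was -0.28 to 0.87 and the median 0.41. Each set of arrays holds 1 that stood apart (run E for carrier, run C for non-carrier), and r without these arrays is not given. The 7 cytosolic members that were not called had a median r of 0.37 with each other in the non-carrier arrays, and of 0.58 without Vars. Against the mean of the other cytosolic members, r in the non-carrier arrays was 0.97 for Nars, 0.96 for Eprs and 0.95 for Gars, but 0.50 for Kars, 0.33 for Dars and -0.088 for Vars. Farsb, which was not called, had 0.82, above Yars at 0.73, the lowest of the called members. Among mitochondrial members, Rars2 had the highest r with the cytosolic mean at 0.63, and Vars2 the lowest at -0.50. Over the whole classes, the carrier arrays gave a median r of 0.24 between cytosolic members and 0.048 between mitochondrial members.

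**Figure D5:**
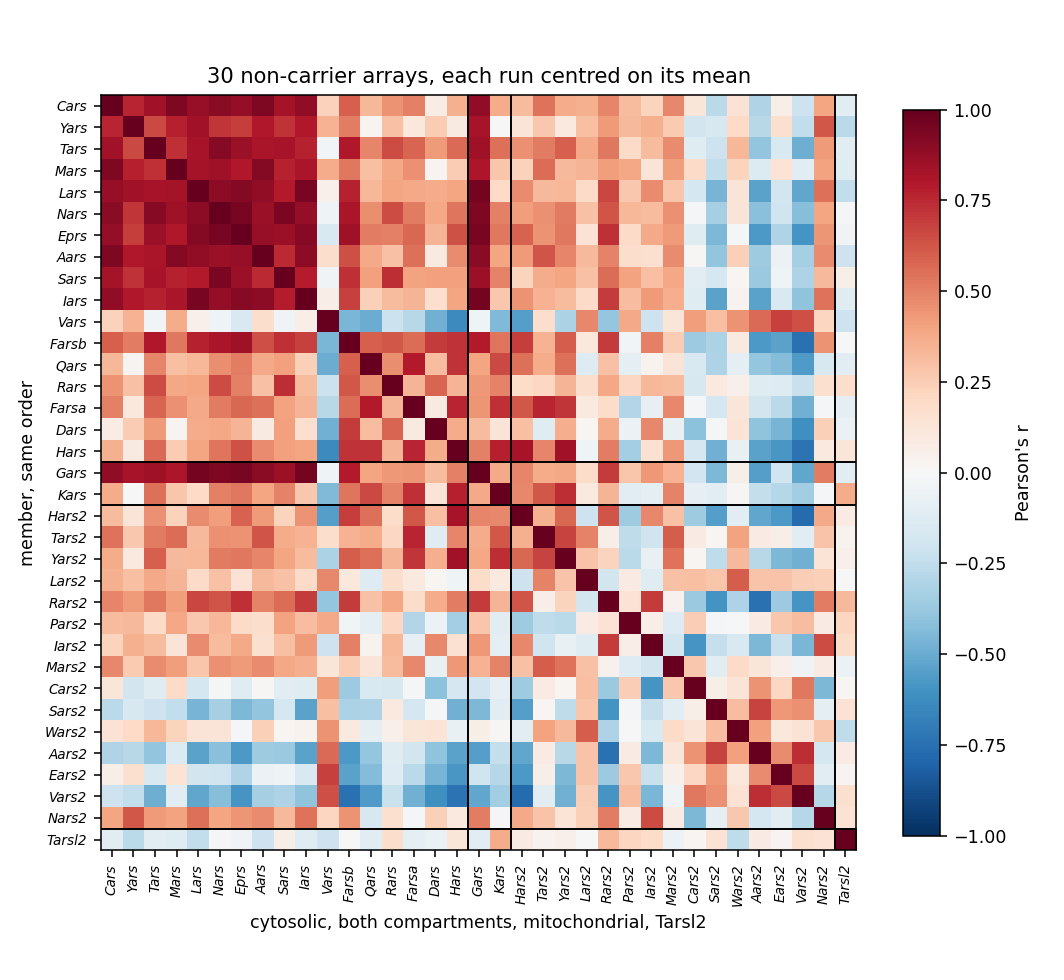
Pearson's r between 35 members over the 30 non-carrier arrays, each run centred on its mean, ordered by class and by change. The called cytosolic members and Gars form a block with r from 0.66 to 0.96, and among mitochondrial members Rars2 comes nearest to it.

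The 5 genes outside the family with the highest r to the cytosolic mean in the non-carrier arrays were Hax1 (0.949), a mitochondrial anti-apoptotic protein, Hspa9 (0.926), the mitochondrial HSP70, Psat1 (0.907), an enzyme of serine synthesis, Mtbp (0.901), an MDM2-binding protein, and Mthfd2 (0.899), a mitochondrial folate enzyme. In the carrier arrays their r lay between 0.66 and 0.88. With carrier serum, Mthfd2 changed by -0.39 ± 0.074 (limma, adjusted p = 0.00239), Psat1 by -0.20, Hspa9 by -0.15 and Mtbp by -0.14. All of these passed, where 1.65% of all genes were called lower, and Hax1 (-0.14, limma, adjusted p = 0.0937) did not. The 5 genes were picked by their r in the non-carrier arrays, which form 1 side of this contrast, and are no independent evidence. The 4 genes carried as context for the amino acid response, Atf4, Ddit3, Asns and Trib3, all fell, by 0.25, 0.29, 0.24 and 0.28 on the log2 scale. They were listed because earlier results of these data showed them, and are no independent evidence.

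Of 17 measured partners of tRNA charging, 1 passed and was lower, where 1.65% of all genes were called lower. Aimp1, a scaffold protein of the multisynthetase complex, changed by -0.12 ± 0.031 (limma, adjusted p = 0.0218). The other scaffolds Aimp2 and Eef1e1 were at -0.065 and -0.018. The cytosolic elongation factor subunit Eef1b2 was at -0.13 (adjusted p = 0.0543) while Eef1a1, which delivers charged tRNA to the ribosome, was at -0.011. On the mitochondrial side, the elongation factor Tufm was at 0.0081, and Gatc, a subunit of the enzyme that makes glutaminyl-tRNA in mitochondria, had the highest partner value at 0.076 (adjusted p = 0.0925). The median partner change was -0.030, with 13 of 17 values negative, where 38.9% of all genes were negative.

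The number of cytosolic calls depended on the run block and on the runs included. Without the block the median cytosolic change was -0.13, but no gene was called and the smallest adjusted p of a cytosolic member was 0.995, with 9 cytosolic members below an unadjusted p of 0.05. With 1 run left out, between 5 (without B or D) and 11 (without C) were called, and 6 without A, E, F or 10wk. The share of all genes called moved too, from 0.54% (without D) to 8.16% (without C), against 2.33% with all runs. Cars, Yars, Tars, Mars, Aars and Gars were called with any 1 run left out. Among all genes, 70.7% of the calls were lower, against 59.5% after quantile normalization, 51.4% with array weights and 35.5% with the markers Mnx1, Isl1, Lhx3 and Olig2 as covariates. That last fit called 31.2% of all genes, 14 cytosolic members, all lower, and 6 mitochondrial members, 2 lower and 4 higher, a mitochondrial share of 37.5% near that of all genes. The part that cell composition had in these values was not tested beyond this.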

How the data were processed

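The authors deposited 1 linear intensity per gene and array, made with RMA and averaged over the exons of a gene. The submitters' processing notes name Affymetrix Expression Console and RMA. The genome build is not given in the sources used here. The authors removed outlier arrays before deposit. The number of arrays limits the precision.

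Log2 intensities were taken with 0 added (lowest value 4.53) and fitted in R 4.3.3 by limma 3.58.1 (lmFit, eBayes), two-sided, with the run as a block. Symbols with hyphens are written with dots in the table, and Gatb was matched through its older symbol Pet112l. Members named in the text are those called in either fit, Gars, Kars and Tarsl2, the mitochondrial counterparts of called members, called partners and the 5 genes with the highest r. Others were named after their values were seen. The members, lists and tests were chosen with earlier results of these data known. In simulated data of the same design with 200 of 19613 genes changed by 0.2, the serum fit recovered 80.5% and called 7 unchanged genes. With 200 of 19613 genes changed by 0.4 in 3 runs, the serum by run fit recovered 55.0% and called 5 unchanged genes. The simulated noise was independent between genes, and in the serum simulation the change was the same in every run. The members co-vary and their changes differed between runs, so these rates need not hold for them. Alternatives covered the block, normalization, dim genes, the pseudocount, the variance model, array weights and runs left out. Promoter motifs were searched on both strands. Protein sequences were not used here. The values of 1 mitochondrial member are not reported here, although it is counted in its class.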

Additional observations from a re-analysis of the deposited data

Results flagged for a closer look

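The serum effect on 2 members differed between runs by the F test of limma over 59 arrays, Cars with an adjusted p of 0.0135 and Lars with an adjusted p of 0.0358. Their values by run are given in the report. Single arrays lay far from the rest of their run and serum group, by Dixon's test, in 4 of 96 groups of 4 to 6 arrays tested over 24 members, where chance gives about 1 in 20. In run C, 3 different non-carrier arrays of the 5 had a low value, 1 for Sars (log2 intensity 10.90, the next at 10.98), 1 for Iars2 (8.24, the next at 8.34) and 1 for Mars2 (7.74, the next at 7.91). A carrier array of run C had the lowest Cars2 of its 6 (7.83, the next at 7.93).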

How the results depend on the processing

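The counts of 10 cytosolic and 0 mitochondrial members changed as follows. Without a run block 0 cytosolic members were called (limma, 9 below an unadjusted p of 0.05). With 1 run left out, 5 to 11 cytosolic and 0 to 1 mitochondrial members were called, where 0.54% to 8.16% of all genes were. The 1 mitochondrial member was Hars2 without run C, the fit that called 8.16% of all genes. Mitochondrial members called numbered 6 with the motor neuron covariates (31.2% of all genes called), where Cars2 turned to 0.052 (limma, adjusted p = 0.0396). They numbered 2 with array weights (Hars2 and Tars2, 14.3% of all genes called). Hars2 alone was called with dim genes left out, where 6.68% of the 9807 genes tested were called. Hars2 was also the only one without the arrays that stand apart (3.65% of all genes called), an alternative chosen after seeing the data. The members called for serum by run fell from 2 to 1 with arrays centred on their median or run C in 2 blocks. For runs E and F, the count of 1 cytosolic member became 0 with centring and 5 with dim genes left out. It became 10 without the array that stands apart, where 0.362% of all genes were called lower. For the E and F fits with centring or without dim genes, the share of all genes is not given. The cause of these changes was not tested, except that leaving out genes shortens the list over which p-values are adjusted. Numbers in the titles are shared by carrier and non-carrier arrays in 3 runs, but same-numbered arrays deviated together (r above 0.1) in 1 of 8 pairs and correlated best with their own number in 4. The pairs of HB9MNs, with 2 arrays of each serum, mirror each other (r of 0.064 in both) and amount to 1 observation. With the title numbers as a block, 8 cytosolic members were called, 7 of them among the 10, and Lars, Eprs and Iars missed the threshold. Among the 11 called members no alternative turned the sign; Cars, Yars, Tars, Mars, Aars and Gars lost the call only without a run block, while Iars lost it under 11 of 20 alternatives. The median r of cytosolic members lay between 0.48 and 0.61 with 1 run left out, was 0.67 with centring and 0.24 in the carrier arrays.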
